A study of Mus musculus with 8 samples.

Results

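The open chromatin described here is that of MIN6 cells that had received an empty plasmid, the baseline state of the study. It consists of all regions on chromosomes 1 to 19 and X in the deposited list of accessible regions (peaks) of this group, 100049 of the 100264 peaks in that list. MIN6 is an established mouse insulinoma line, derived from a mouse carrying the SV40 T antigen under an insulin promoter, and stands in for pancreatic beta cells in many laboratories. It is a proliferating tumour line grown alone, without the alpha, delta and other cells of an islet. The study asked how misexpression of the zinc finger factor Klf4 in beta cells changes chromatin accessibility, and the empty vector cells were its control. Of its 8 ATAC-seq libraries, 4 are used here, the biological replicates of MIN6 cells of genotype WT transfected with pcDNA 3 Empty Vector by means of Lipofectamine 3000 for 48 hours. The 4 libraries are represented by 1 merged list, so each measure below has 1 value, no spread between replicates and no test. Read depth is unknown from a peak list.

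In ATAC-seq a transposase cuts and tags DNA that nucleosomes leave exposed, and places where many cut ends pile up are called as peaks. Active promoters and enhancers are the usual places of open chromatin. A beta cell makes, stores and secretes insulin in response to glucose. Its identity depends on transcription factors such as Pdx1, Nkx6-1, Nkx2-2 and Mafa, which bind promoters and enhancers of insulin and of genes for glucose sensing and secretion. Other endocrine cells of the islet share part of this machinery, including Pax6, Neurod1 and the secretory granule proteins, and use other factors for their own hormones.

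All 6 genes used to check the label had at least 1 peak within 10 kb of the gene body: the insulin genes Ins1 and Ins2, Iapp, which encodes the amyloid peptide secreted together with insulin, and the factors Pdx1, Nkx6-1 and Nkx2-2. Such a peak was common, found at 83% of all protein-coding genes. For 5 of them RefSeq (GRCm38.p6) gives a promoter of 300 bp, from 250 bp before to 50 bp after the start site, and at each of the 5 all 300 bp lay under 1 peak, as did 37.2% of all 32619 promoters in that table. They are shown because they are the promoter DNA that was open in these cells, and because they differ widely in base composition. Capitals mark matches to CANNTG, the E-box bound by factors such as Neurod1, and to CCAAT, searched on both strands. The promoters lie at chr19:52264047-52264346 (plus strand, Ins1), chr5:147269847-147270146 (plus strand, Pdx1), chr5:101664662-101664961 (minus strand, Nkx6-1), chr2:147186353-147186652 (minus strand, Nkx2-2) and chr6:142298175-142298474 (plus strand, Iapp), and Ins2 is the remaining marker.
Ins1: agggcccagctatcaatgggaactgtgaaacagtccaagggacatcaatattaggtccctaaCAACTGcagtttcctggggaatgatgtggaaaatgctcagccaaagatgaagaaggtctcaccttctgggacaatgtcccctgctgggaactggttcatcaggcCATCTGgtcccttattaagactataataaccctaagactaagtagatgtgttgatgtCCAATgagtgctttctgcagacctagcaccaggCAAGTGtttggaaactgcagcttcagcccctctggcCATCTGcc
Iapp: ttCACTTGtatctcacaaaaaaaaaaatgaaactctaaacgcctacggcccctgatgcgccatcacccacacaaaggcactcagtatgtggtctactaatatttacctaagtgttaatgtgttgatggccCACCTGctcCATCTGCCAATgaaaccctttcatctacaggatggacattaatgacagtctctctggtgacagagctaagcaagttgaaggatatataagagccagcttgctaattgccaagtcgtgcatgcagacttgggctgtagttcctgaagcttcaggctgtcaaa
Pdx1: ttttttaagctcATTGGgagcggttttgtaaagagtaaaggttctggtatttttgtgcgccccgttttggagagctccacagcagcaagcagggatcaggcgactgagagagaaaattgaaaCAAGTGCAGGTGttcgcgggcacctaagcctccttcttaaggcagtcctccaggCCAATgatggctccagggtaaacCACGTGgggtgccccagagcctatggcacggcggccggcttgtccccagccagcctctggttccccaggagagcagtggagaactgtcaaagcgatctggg
Nkx2-2: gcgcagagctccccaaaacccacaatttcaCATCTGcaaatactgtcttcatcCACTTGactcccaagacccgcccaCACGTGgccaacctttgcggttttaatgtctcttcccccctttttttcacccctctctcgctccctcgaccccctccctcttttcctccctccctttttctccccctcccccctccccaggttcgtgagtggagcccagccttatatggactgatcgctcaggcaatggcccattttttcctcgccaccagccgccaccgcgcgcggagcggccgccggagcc
Nkx6-1: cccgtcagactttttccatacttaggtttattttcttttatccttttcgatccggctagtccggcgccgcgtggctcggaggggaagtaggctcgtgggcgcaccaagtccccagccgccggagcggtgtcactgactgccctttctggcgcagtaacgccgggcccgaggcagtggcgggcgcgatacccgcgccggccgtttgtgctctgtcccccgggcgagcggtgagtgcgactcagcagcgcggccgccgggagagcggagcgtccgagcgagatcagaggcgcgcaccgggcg

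The Ins1 promoter held no CpG dinucleotide and was 48.3% G and C, and that of Iapp held 4 CpG at 44.3%. The promoters of the 3 factors were richer, with 11 CpG at Pdx1, 17 at Nkx2-2 and 40 at Nkx6-1, which was 67.3% G and C. CANNTG matched 4 times at Ins1, 3 times each at Iapp, Pdx1 and Nkx2-2 and not at Nkx6-1. CCAAT matched 2 times at Pdx1 and 1 time each at Ins1 and Iapp. Of all 32619 promoters of the same length, 72.3% held CANNTG and 37.6% held CCAAT, so a match is common and is a description of the letters only. A CANNTG match can share bases with a CCAAT match. None of the 5 held TAATTA (5.25% of all promoters), TGACGTCA (1.80%), CCACCC (31.6%) or TATAAA (13.7%).

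The insulin genes carried few peaks, 1 at Ins1 and 2 at Ins2. At Ins1 the window, defined as the gene body with 10 kb added on each side, held a single peak of 1193 bp at chr19:52263907-52265099, which covered the start site and had a −log10 q of 81.8. Here q is the authors' multiple-testing corrected p-value of a peak, and fold enrichment is their ratio of signal to local background. Ins2 had a peak of 1660 bp overlapping its body at chr7:142678766-142680425 (−log10 q of 62.2, fold enrichment 4.40) and a weak one of 507 bp located 635 bp outside the body (−log10 q of 2.27). Neither insulin gene had a peak more than 1 kb from a gene end in its window. Iapp had 4 peaks, and the one of highest score lay away from the promoter: 973 bp at chr6:142289192-142290164, 8261 bp upstream of the start site (−log10 q of 198, enriched 9.16-fold). The peak over its start site was 1243 bp wide with a −log10 q of 65.4.

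The factors carried wide peaks over the start site together with separate peaks in the surrounding DNA. Pdx1, the factor required for pancreas formation and for insulin transcription, had a peak of 3164 bp over its start at chr5:147267327-147270490 (−log10 q of 57.3). A second Pdx1 peak of 490 bp lay 5567 bp upstream with a −log10 q of 58.3, and the 3 peaks downstream of the start were weaker, with −log10 q from 2.26 to 7.92. Nkx6-1, a factor that keeps beta cells from taking up other islet fates, had 2 peaks: 2597 bp over the start (−log10 q of 73.8) and 815 bp located 8039 bp downstream of the start, beyond the end of the gene (−log10 q of 62.1). At Nkx2-2, which acts in beta and other endocrine cells, 6 peaks were called. The Nkx2-2 peak over the tabulated start site was 2666 bp wide but of low score (−log10 q of 6.91), whereas one of 2340 bp located 6976 bp further upstream, at the upstream end of the annotated body, reached 41.5. Mafa, an activator of insulin transcription found in mature beta cells, had 4 peaks. The strongest Mafa peak, 1861 bp at chr15:75746970-75748830, overlapped the body (−log10 q of 90.5), and a peak of 2364 bp lay 6427 bp outside it (61.3).

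**Figure D1:**
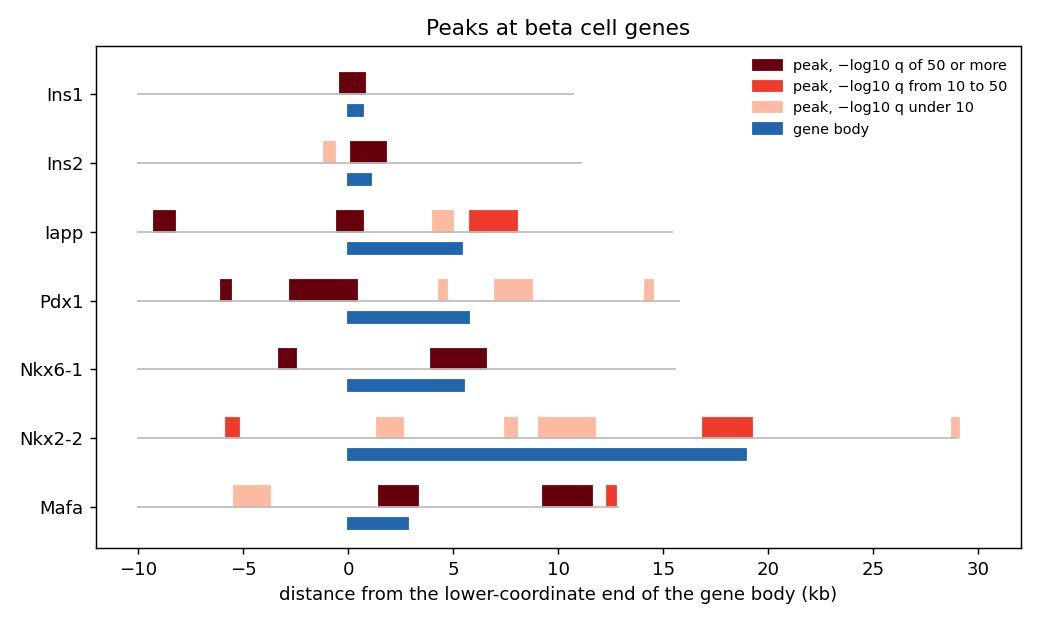
Peaks (upper bars, coloured by −log10 q) and gene bodies (lower blue bars) at 7 beta cell genes, drawn to scale against distance in kb from the lower-coordinate end of the body; the grey line is the window of body and 10 kb on each side. Ins1 had 1 peak and Nkx2-2 had 6, and the Iapp peak at the left edge is the one with a −log10 q of 198.

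Peaks of high score at other beta and endocrine genes lay at the start site, inside the gene or beyond it. G6pc2, the islet glucose-6-phosphatase subunit, had a peak of 624 bp over its start site with a −log10 q of 179 and another 4695 bp outside the body with 127. Most peaks were weaker: the median over the 96 peaks in the windows of the beta list was a −log10 q of 7.83. Slc2a2, the glucose transporter GLUT2, had 7 peaks and none over its start; the nearest lay 1254 bp upstream (−log10 q of 56.6), and the strongest lay 8524 bp past the end of the gene (90.2). Abcc8 encodes the sulfonylurea receptor subunit of the potassium channel that couples glucose metabolism to secretion. Its window held 15 peaks with −log10 q from 1.81 to 253, and the highest lay inside the gene body. Pax6, a regulator of all islet endocrine lineages, had 8 peaks, of which the strongest (2429 bp, −log10 q of 134) lay inside the gene, 5241 bp from the nearest tabulated start.

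To compare genes of unequal length, the peak-covered bp per kb of window were computed for 21631 protein-coding genes. At least 1 peak was found in the window of 17951 of them (83%), the median gene had 46.0 bp per kb in 3 peaks, and the top 10% of genes lay above 118 bp per kb. Some genes counted as without a peak, such as Ren2 (from chr1:159748) and Tmlhe (from chrX:159605), are annotated near the first base of their chromosome. Whether such positions belong to the chromosome or to an unplaced scaffold was not tested. Windows of neighbouring genes overlap, so that 1 peak can count for several genes. All 16 genes of a beta cell list had a peak, and 7 of 16 were in the top 10%. The median of the list was 108.6 bp per kb, 2.36 times that of all genes, and 15 of 16 members lay above the median gene. The ratio was 4.14 in gene bodies alone and 1.495 with windows of 50 kb.

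Mafa and Pdx1 were the most covered genes of the beta list, followed by Iapp. Mafa ranked 10 of all 21631 genes with 280.3 bp per kb, Pdx1 ranked 51 with 240.2 and Nkx2-2 ranked 225 with 195.9, while Nkx6-1 had 133.7. Among secreted products Iapp had 213.1 bp per kb (rank 123), Ins2 102.8, Ucn3 (urocortin 3, a marker of mature beta cells) 74.9 and Ins1 57.6. Ins1 is short and its window held only the promoter peak; it ranked 8782. In the glucose sensing and secretion group, Glp1r, the GLP-1 receptor, had 114.3 bp per kb, Slc30a8, the zinc transporter of insulin granules, had 93.9, G6pc2 93.3 and Slc2a2 88.2. Ero1b, an oxidase for disulfide bonds in the endoplasmic reticulum, had 132.2 in 14 peaks and Gjd2, the gap junction protein connexin 36, had 118.7. Prlr, the prolactin receptor, was the 1 member below the median gene, at 31.04.

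Genes shared by islet endocrine cells were covered to a similar degree. The 16 members of the pan-endocrine list had a median of 103.2 bp per kb, 2.24 times all genes; 7 of 16 were in the top 10% and 14 of 16 were above the median gene. Its factors were Pax6 at 227.5 (rank 75), Foxa2 at 206.1, Insm1 at 158.9, Neurod1 at 158.0, Isl1 at 85.5 and Rfx6 at 73.5 bp per kb. The channel subunits Abcc8 and Kcnj11 had 140.1 and 125.0 and share 2 peaks, because the genes are neighbours. Among granule proteins Chga had 187.3, Scg2 93.1, Cpe, which trims prohormones, 74.8 and Chgb 38.1. Scg5, a chaperone of a prohormone convertase, had 65.6, and Scgn, a calcium-binding protein of the cytosol, had 113.4. Of the prohormone convertases that process proinsulin, Pcsk2 held 38 peaks over a long window (88.8 bp per kb) and Pcsk1 had 28.9.

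The 12 genes of the other islet cell types had a median of 47.9 bp per kb, 1.04 times all genes; 1 of 12 was in the top 10% and 1 had no peak. Whether this list lay above or below all genes turned with the setting: the ratio was 0.1398 in gene bodies alone, 0.688 with windows of 50 kb, 0.923 for peaks of −log10 q 5 or more, 0 with the 20000 peaks of highest −log10 p and 2.35 without peaks near gene ends. The member in the top 10% was Fev, a factor of endocrine progenitors and serotonin-producing cells, at 201.5, and it shares 4 peaks with its neighbour Cryba2. Peaks of Fev are also shared with the microRNA gene Mir375, described below. The hormone genes Gcg (glucagon), Sst (somatostatin), Ppy (pancreatic polypeptide), Pyy (peptide YY) and Ghrl (ghrelin) had 32.8, 74.1, 80.3, 95.7 and 12.4, with 2 peaks shared between Ppy and Pyy. Of the alpha cell factors, Irx2 had 99.8, Pou3f4 49.9 and Irx1 no peak, and Hhex, a delta cell factor, had 33.3.

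Some alpha and delta cell genes had peaks in these cells all the same. Gcg had a peak of 341 bp over its start site at chr2:62483555-62483895 (−log10 q of 18.8) and one of 614 bp located 1123 bp upstream (24.1). Sst had 1 peak, 6824 bp upstream of its start (13.4). Whether these peaks belong to all cells of the line or to some of them cannot be told apart in bulk DNA.

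**Figure D2:**
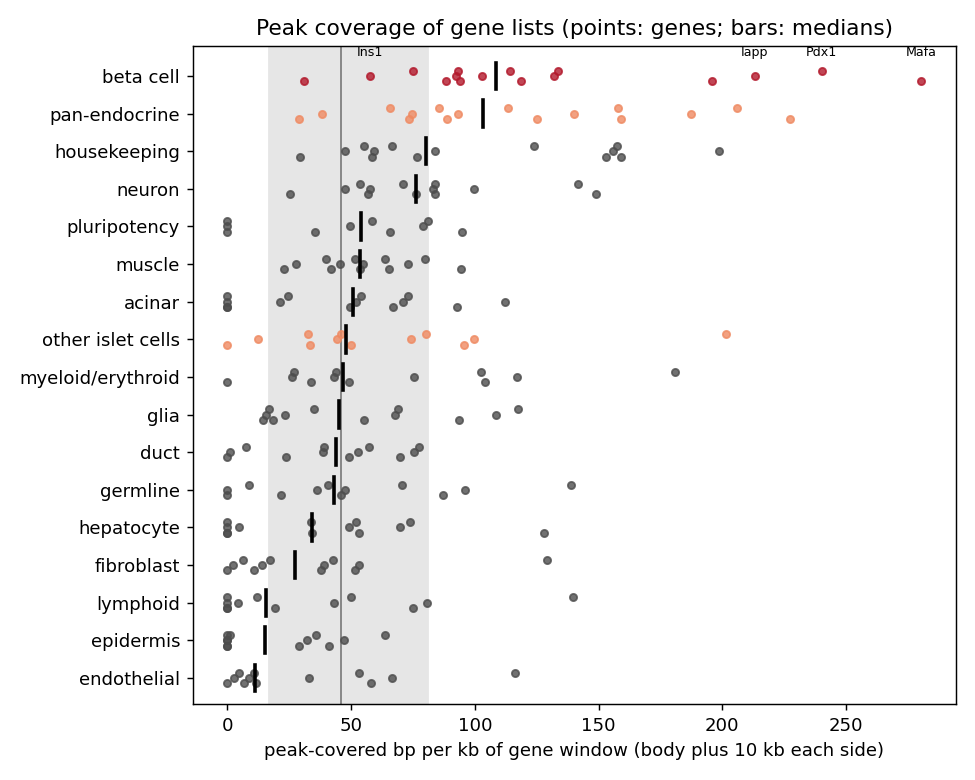
Peak-covered bp per kb of window for each gene (points) of 17 gene lists, with the median of each list as a short bar, the median of all genes as a vertical line and their quartiles (16.8 and 81.1) as a grey band. The medians of the beta and pan-endocrine lists are 108.6 and 103.2, against 46.0 for all genes.

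Lists for 13 lineages outside the islet, 159 genes in all, had a pooled median of 43.1 bp per kb, 0.937 times that of all genes; 7 were in the top 10%, 76 were above the median gene and 26 had no peak. Of all 21631 genes 3680 had no peak, a similar share, so the counts without a peak given below do not set these lists as a whole apart. The 3680 include 952 olfactory and 330 vomeronasal receptor genes, so the 2 shares are not of like genes. Their medians ran from 11.1 for endothelial genes, 15.1 for epidermis and 15.7 for lymphoid genes to 54.0 for pluripotency and 76.1 for neuronal genes. Neuronal genes thus had the highest median of the 13, led by Slc17a7 at 149.0 and Tubb3 at 141.7. In the pancreas itself, the acinar list was led by Ctrl at 112.4 and Ctrb1 at 92.8 and had 4 of 14 members without a peak, and the duct list was led by Krt7 at 77.3 and Elf3 at 75.5 and had 1 of 12 without, Sox9. The hepatocyte list was led by Apoa2 at 128.0 and Nr1i3 at 73.9, which share 3 peaks, and 4 of 13 members had none.

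Blood lists were led by Cd79a (139.6) and Lck (80.7) for lymphoid cells, with 4 of 12 members lacking a peak, and by Cd68 (180.8) and Klf1 (116.9) for myeloid and erythroid cells, with 1 of 12 lacking one. Glial genes were led by Gfap (117.4) and S100b (108.6), muscle genes by Des (94.5) and Acta1 (80.1), endothelial genes by Sox18 (116.4) and Esam (66.5), and fibroblast genes by Col1a1 (129.0) and Pdgfrb (53.2). Of these 4 lists, the endothelial and the fibroblast one each had 1 of 12 members without a peak. Epidermal genes were led by Krt10 (63.7) and Perp (47.2) with 5 of 12 lacking a peak, germline genes by Zp3 (138.7) and Prm2 (95.9) with 2 of 12, and pluripotency genes by Lin28a (94.9) and Pou5f1 (81.2) with 3 of 10. Regulators without any peak, named after their values were seen, were Sox2 in the pluripotency list and Kdr, a growth factor receptor, in the endothelial list. In the housekeeping list Actb had 158.9; the list had a median of 80.3 and had 6 of 14 members in the top 10%. Olfactory receptor genes, which are expressed in sensory neurons of the nose, had no peak in 952 of 1110 windows.

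Housekeeping and beta cell genes differed in where their covered bp lay. Setting aside all peaks that lay 1 kb or less from a protein-coding gene's ends kept 85311 peaks (85.3%), called distal here, and the median gene then had 16.8 bp per kb, with the top 10% of genes above 61.2. On this measure the beta list had a median of 63.1, 3.75 times that of all genes, with 8 of 16 members in the top 10%, and the pan-endocrine list had 64.4, 3.83 times, with 9 of 16. The housekeeping median was 8.94, 0.532 times that of all genes, with 2 of 14 in the top 10%. The other islet list reached 39.6, 2.35 times, with 4 of 12, and the 159 genes of other lineages 19.3, 1.15 times, with 7 of 159. Among those lineages the ratio ran from 0 for hepatocyte genes to 2.48 for neuronal genes. The neuronal list, with a median of 41.7 and 1 of 13 in the top 10%, thus lay above the other islet list. Distal is counted from the ends of the annotated bodies, so peaks over start sites inside a body still count; leaving out also peaks within 1 kb of a start in the RefSeq promoter table gave 3.77 times for the beta, 3.78 for the pan-endocrine and 0.610 for the housekeeping list.

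Distal coverage of some factors rested in part on peaks within 1 kb of a tabulated start site. Pax6 had 176.8 distal bp per kb, Foxa2 138.8 and Nkx2-2 135.8, and without peaks within 1 kb of a tabulated start these were 121.5, 24.9 and 53.6. The Foxa2 peak left out, 2743 bp at chr2:148038341-148041083, lay 1794 bp outside the gene body and 4381 bp from the start of Foxa2 itself. Neurod1 (124.0), Pdx1 (117.3), Mafa (95.1), Insm1 (64.8), Isl1 (41.1) and Nkx6-1 (31.9) had the same value on both measures, and Rfx6 had 41.8 and 35.7. The insulin genes had 0 each. Iapp had 38.3, which is the peak 8261 bp upstream.

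**Figure D3:**
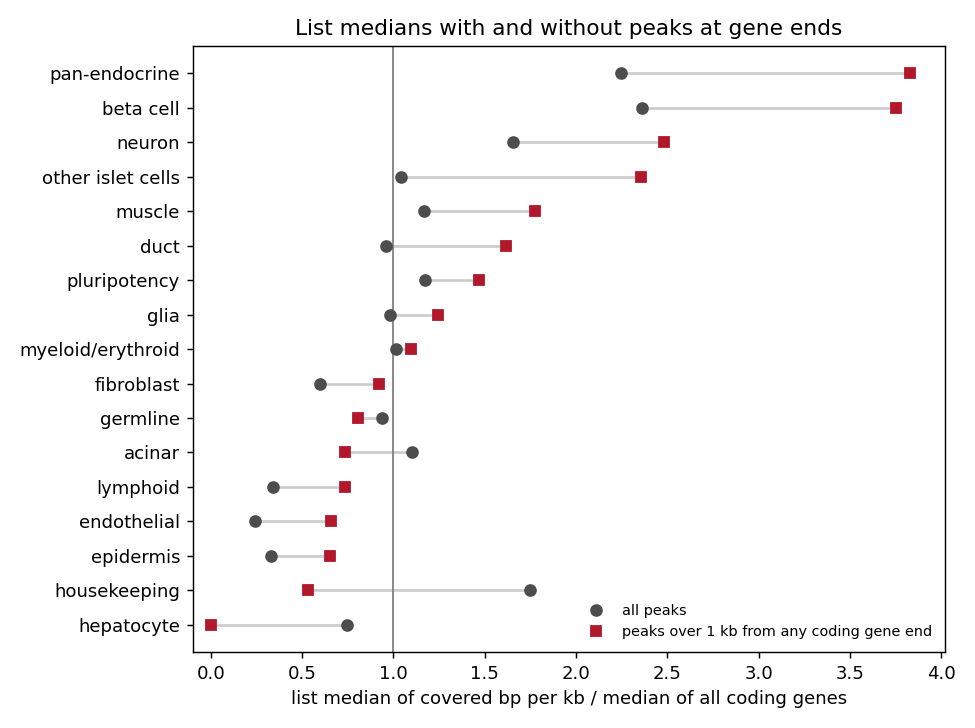
Median covered bp per kb of each gene list divided by that of all protein-coding genes, with all peaks (circles) and with distal peaks only (squares); the vertical line marks a ratio of 1. The housekeeping list is at 1.75 with all peaks and 0.532 with distal peaks, and the beta list at 2.36 and 3.75.

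Start sites gave another view of the lists. Of 17274 protein-coding genes with a tabulated promoter, 10640 had a peak over one (61.6%, 95% Wilson interval 60.9 to 62.3, which covers counting error only). The open share followed the number of CpG in the 300 bp: 6.89% of 7516 promoters with at most 2 CpG, 19.8% of 9142 with 3 to 7, 56.7% of 4587 with 8 to 14 and 91.1% of 11374 with 15 or more. Among promoters of all genes, the open ones had a median of 20 CpG and the others 3. Beta list genes had an open promoter in 10 of 12 cases, pan-endocrine genes in 12 of 12, other islet genes in 4 of 9, housekeeping genes in 10 of 10 and the 13 other lineages in 17 of 112.

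Genes with fewer than 8 CpG in each promoter were rarely open, 867 of 6112 (14.2%), against 87.6% of the 11162 others. In the beta list 4 of 5 such genes were open: Ins1 with 0 CpG, Ucn3 with 1, Iapp with 4 and G6pc2 with 6, and Slc2a2 with 2 CpG was not. Rfx6, with 2 CpG, was the 1 pan-endocrine gene of this kind and was open. Of 3 such genes of other islet cells Gcg was open, and Ppy and Ghrl were not. In the 13 other lineages 4 of 66 were open, S100b, Cd68, Epor and Esrrb, and none of 11 hepatocyte, 8 acinar or 6 epidermal genes was. The lists were small and were chosen with results of these data known, so these counts are descriptions.

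The letters searched also differed between promoters with and without a peak. TATAAA was present in 6.53% of promoters with a peak and 19.9% of those without, TAATTA in 2.68% and 7.52%, and CANNTG in 64.2% and 79.5%. The CpG-containing TGACGTCA, a site of cyclic AMP responsive factors, went the other way with 3.07% and 0.687%, as did the GC-rich CCACCC with 36.9% and 27.0%. CCAAT was found in 37.4% and 37.7%. Open promoters had a median of 61% G and C and the others 47.3%.

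Across the genome, the peaks covered 65.9 Mb, 2.51% of the 2632 Mb spanned by genes and peaks. The median peak was 539 bp wide (quartiles 327 and 853), and the widths ran from 168 to 5736 bp. Fold enrichment had a median of 4.24 and −log10 q a median of 8.82, so many peaks were weak; the lowest −log10 q was 1.02. The 1612 peaks of at least 2000 bp made up 1.61% of the list and 5.90% of the covered bp, and the 13635 under 250 bp made up 13.6% and 4.27%.

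Peaks over a start site were wide and strong. The 11167 peaks over a RefSeq start site (11.2% of peaks, interval 10.97 to 11.36) held 20.3% of the covered bp and had a median width of 1117 bp and a median −log10 q of 68.6. The 86776 peaks more than 1 kb from any tabulated start had 493 bp and 7.51. Open chromatin at the start reached further into the gene than before it, with medians of 585 bp downstream and 486 bp upstream, and reached further upstream at 41.4% of 14550 starts.

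By distance to protein-coding genes, 14.7% of peaks (interval 14.51 to 14.95) lay within 1 kb of a gene end, zones that make up 2.98% of the length, and these held 24.4% of the covered bp. A further 44.3% lay inside gene bodies away from their ends, 9.63% up to 10 kb outside, 20.6% at 10 to 100 kb and 10.7% (10.5 to 10.9) beyond 100 kb, where 29.1% of the length lies. Median width was 1027 bp near gene ends, 492 bp inside bodies, 503 and 501 bp in the next classes and 453 bp beyond 100 kb. A −log10 q of 50 or more was reached by 51.1% of peaks near gene ends, 7.61% inside bodies and 5.48% beyond 100 kb. Of peaks beyond 100 kb from a protein-coding gene, many lay near genes of other types, since only 1.77% of all peaks were that far from a gene of any type.

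**Figure D4:**
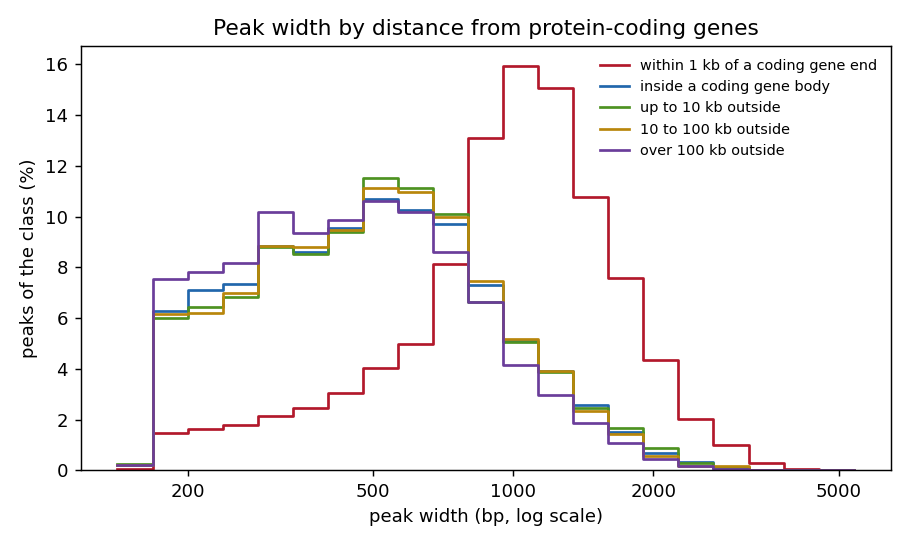
Peak width in bp (log axis) against the percent of peaks in each class, for peaks near the ends of protein-coding genes, inside their bodies and at increasing distance from them. Median width is 1027 bp near gene ends and 453 to 503 bp in the other classes.

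The 20 most covered genes, taken down the ranking without overlapping windows, included 1 member of the beta list, Mafa, and 2 histone genes. Gadd45g, a stress and growth arrest gene, came first with 308.5 bp per kb, including 1 peak of 4715 bp. Next came Midn (304.8), the histone gene H3c2 (299.4), Polr2l (296.0), an RNA polymerase subunit, the histone gene H3c8 (291.7), Hes7 (289.1), a Notch-regulated repressor, Gm42427 (288.4), Duxf3 (288.3), Ifnz (282.6) and Mafa (280.3). Histone genes belong to families of closely similar genes, and how reads were placed among such copies was not tested, so these values are uncertain, as may be those of Gm42427, Duxf3 and Ifnz.

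Ranks below Mafa were taken by Cryba2 (277.6), Dbp (277.1), a clock-controlled factor, the immediate early gene Junb (276.6), the actin gene Actg1 (275.3), Camk2n2 (274.3), Lrrc14 (268.4), Irgm1 (266.3), Fbxl15 (263.3), Camk2n1 (252.6) and the ribosomal protein gene Rpl19 (252.4). Distal coverage was 0 at H3c2, Ifnz, Dbp, Camk2n2 and Lrrc14. The median gene had 1 other gene in its window and those of the top 10% had 2, and covered bp per kb was higher where that number was (Spearman's rho 0.45 over 21631 genes whose windows overlap). Windows under 21 kb, of which there were 1447, had a median of 0 bp per kb, those of 21 to 30 kb 62.7 and those of 120 kb or more 28.2. The median window was 20.95 kb for olfactory and 20.96 kb for vomeronasal receptor genes, both with a median of 0 bp per kb. Replication-dependent histone genes, with a median window of 20.49 kb, had a median of 203.9.

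The widest and the strongest peaks were mostly not at beta cell genes. The widest, 5736 bp at chr17:39843039-39848774, lay over the ribosomal RNA pseudogene Rn18s-rs5, and the next, 4804 bp at chr9:3000002-3004805, lay at the start of the mapped sequence with no gene. The next 3 lay at Nfix (4715 bp), a nuclear factor gene, at Gadd45g (4715 bp) and at Efna5 (4594 bp), an ephrin ligand. The highest −log10 q, 4896, belonged to a peak at chr2:98666248-98667316, 1034576 bp from the nearest protein-coding gene, Lrrc4c. The other leading peaks, with their nearest genes, had −log10 q of 2907 (Rpusd4, 29262 bp away), 2724 (Zc3h7a), 2624 (Col19a1, 23693 bp away, over pseudogenes) and 2485 (Axin2, 60859 bp away).

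Of the 20 strongest peaks 16 were narrower than 600 bp, 1 covered a start site and 4 were the last peak of a chromosome, while 68.8% of the 1000 strongest covered a start site.

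Chromosomes differed in covered share. Chromosomes 11 (4.01%) and 19 (3.28%) were the most covered, and X (0.903%) and 3 (1.95%) the least. Chromosomes 11 and 19 held 13.2 and 11.5 protein-coding genes per Mb, X 5.65 and 3 6.15. Across the 20 chromosomes covered share and gene density went together (Pearson's r 0.66, Spearman's rho 0.66, a description over chromosomes of 1 merged list). Chromosome 7 departed from this, with 2.70% covered at 14.0 genes per Mb. On X, 62.1% of genes had a peak and the median gene had 14.5 bp per kb.

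**Figure D5:**
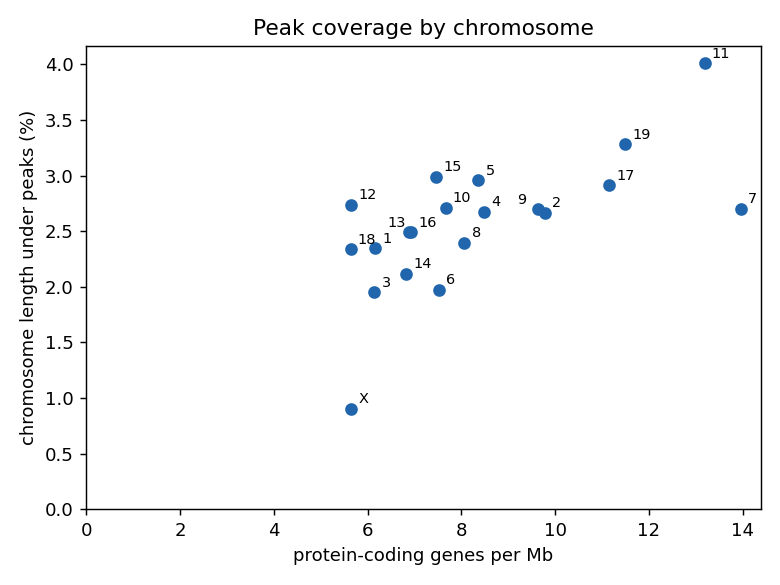
Share of each chromosome's length under peaks, in percent, against protein-coding genes per Mb; each point is 1 of 20 chromosomes. Chromosome 11 is highest at 4.01% and X lowest at 0.903%.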

How the data were processed

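Per the labels, 4 empty vector libraries of MIN6 cells were made with a purchased kit for the assay, and an mRNA-seq library kit is named too. Per the submitters' processing notes, FastQC, Bowtie2, MACS2, DiffBind and mm10 were used; versions, options, duplicate handling and transposase shifts are not given in the sources used here. The authors deposited 1 merged broad peak list per plasmid, with a fold enrichment (a ratio of signal to local background) and −log10 values of each peak's p-value and q-value. Whether libraries were merged before or after calling is not given in the sources used here. The Klf4 list was not used here.

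Peaks on chromosomes 1 to 19 and X were kept and compared by position with RefSeq gene and promoter tables of GRCm38.p6, the assembly also called mm10. A peak counted for a gene when it overlapped its window by at least 1 bp. All 217 list genes were found (Ero1lb as Ero1b). Members and lists were chosen with earlier results of these data known. Named genes were all members of the 3 islet lists, the 20 most covered genes with non-overlapping windows, the 2 most covered members of each other list, the 5 widest and 5 strongest peaks, and the 2 most and 2 least covered chromosomes; others were named after their values were seen. The values of some list members are not reported here; counts and medians include them. Neighbouring peaks are not independent. The steps were tested on simulated data. Software was matplotlib 3.10.9, scipy 1.17.1, pandas 2.3.3, numpy 2.4.6 and Python 3.11.15.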

Additional observations from a re-analysis of the deposited data

Results flagged for a closer look

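The deposited list held peaks outside the sequences described above. On chromosome Y there were 50 peaks, with a median width of 422 bp, a median −log10 q of 8.90 and a highest −log10 q of 539. On 22 unplaced scaffolds there were 165 peaks, with a median width of 600 bp, a median −log10 q of 3.36 and a highest value of 1220. Both sets were set aside by the choice of chromosomes 1 to 19 and X and were not compared with genes.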

How the results depend on the processing

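Of 72 values under other settings, 39 stayed within their limits (the 95% interval of a share or median width, 1.5 times a count or list ratio), 26 moved and 7 list ratios crossed 1; the cause was not tested. The beta and pan-endocrine ratios were above 1 in every setting run. With a −log10 q of at least 5, median width was 658 bp, 59.6% of peaks were in gene bodies, 19.3% near gene ends and 9.50% beyond 100 kb, and the other islet ratio was 0.923. With the 20000 peaks of highest −log10 p these were 952 bp, 73.5%, 45.3%, 5.41% and 0, and the other lineage ratio was 0. With peaks of at least 500 bp, 54372 remained, at 815 bp, 62.0%, 23.4% and 8.64%. A gene end window of 2500 bp gave 19.4%, and genes of every biotype gave 66.5%, 20.6% and 1.77%. Gene bodies alone gave a beta ratio of 4.14 and an other islet ratio of 0.1398, and windows of 50 kb gave 1.495 and 0.688. Peaks per kb gave an other lineage ratio of 1.03. Settings added after seeing the data left out peaks near gene ends (beta 3.75, pan-endocrine 3.83, other islet 2.35, other lineages 1.15), also peaks near tabulated start sites (3.77, 3.78, 2.49 and 1.19) or the 100 strongest peaks, which moved no value beyond its limits. No paired analysis was possible because the 4 libraries are represented by 1 merged list; leaving out each replicate was not run for the same reason. Depth is unknown, so a gene without a peak is one where none was detected.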

Other observations

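Several gene families and gene classes, chosen after their values were seen, are given here by their medians and ranges. All 57 replication-dependent histone genes had a peak, with a median of 203.9 bp per kb (56.7 to 299.4), 47 of 57 in the top 10% and a distal median of 0; windows of clustered genes overlap and can share peaks. The 97 ribosomal protein genes had a median of 99.6 (0 to 252.4), with 33 in the top 10%, and the 397 zinc finger genes with a Zfp symbol 40.7 (0 to 193.1), with 22 in the top 10%. Vomeronasal receptor genes, which detect pheromones, had no peak in 330 of 355 windows, and beta defensin genes, which encode antimicrobial peptides, in 30 of 42.

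Long genes, also chosen after their values were seen, ranged from dense to closed. Of 2427 protein-coding genes with a window of at least 120 kb, 55 had no peak, among them the neuronal genes Il1rapl1, whose window spans 1395 kb, Gabrg3 and Grm5. The 55 also include Tmlhe, whose position near the first base of X is uncertain. The most covered were Macrod1 with 157.8 bp per kb and Gse1 with 149.4 in 66 peaks. The highest numbers of peaks were 94 at Asic2, a proton-gated channel gene, 92 at Auts2, 86 at Camta1 and 84 at Arhgap26.

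MicroRNA genes, short RNAs that repress target transcripts, could be placed as well, and those named were chosen after their values were seen. Of 1228, 74.3% had a peak in the window and 14.3% had one over the hairpin, and the median was 48.1 bp per kb. Mir375, abundant in islet endocrine cells, had 4 peaks and 277.4 bp per kb, and its 64 bp hairpin lay wholly under a peak of 1986 bp at chr1:74900465-74902450 (−log10 q of 57.5). Its peaks at chr1:74892749-74893707 and chr1:74895298-74897084 also count for Fev, so the values of these neighbours are not independent. Mir7-2 (248.8), Mir200c (233.4), Mir124a-1 (206.1), Mir7-1 (184.6), Mir9-2 (184.2) and Mir7b (150.9) were also above that median, and Mir184 (47.1), Mir29a (30.7), Mir200a (29.1) and Mir153 (13.4) were below it. Of microRNAs known from other tissues, Mir206 and Mir133b of muscle had no peak, but Mir1a-1 and Mir1a-2, also of muscle, had 68.0 and 13.2. Mir223 of myeloid cells had none and Mir142 of blood cells had 110.4 in 2 peaks, and Mir122 of hepatocytes had 15.6.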
